A study of Mus musculus with 18 samples.

Results

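This account describes 40 genes of the extracellular matrix in the left ventricle of mice with cardiac-specific overexpression of Gαq. They comprise 13 matrix glycoproteins, 8 elastic fibre genes, 8 proteoglycans, 7 basement membrane genes and 4 crosslinking enzymes. They were taken by name from the 55450 genes of the count table, after Ensembl identifiers were mapped to GENCODE M21 symbols, and the rule that names them uses no measured value. All 40 passed the filter on low counts, which left 16270 genes to test.

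Gαq is a G protein subunit that carries signals from neurohormone receptors and mechanical strain, and Gαq mice are a model of dilated cardiomyopathy without diabetes. Male FVB/N Gαq mice and wild type (WT) littermates received, from 4 weeks of age and for 16 weeks, control diet (CD) or the same chow with the SGLT2 inhibitor ertugliflozin (ERTU) at 0.5 mg per g. Poly(A) RNA of powdered left ventricle was sequenced from 9 WT hearts (4 on CD and 5 on ERTU) and 9 Gαq hearts (5 on CD and 4 on ERTU). The sources used here call the transgene cardiac-specific and do not name its promoter.

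The extracellular matrix of the ventricle is a collagen network on which glycoproteins, proteoglycans and elastic fibres are assembled, mostly by fibroblasts. Laminins, nidogens and perlecan form the basement membrane around each cardiomyocyte and vessel, and enzymes of the lysyl oxidase family crosslink collagen and elastin. Matricellular glycoproteins such as periostin, tenascin-C and the thrombospondins are scarce in the resting heart and are known for their return in injured or overloaded myocardium.

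Library totals ran from 15383566 to 20908363 counts, and the 40 genes together took between 0.471% and 0.927% of them. Gnaq, which encodes Gαq, was at 45.5 to 229.7 CPM (counts scaled to a common library size) in the 9 WT libraries and at 1641 to 11672 CPM in the 9 Gαq libraries, so no library went against its label. Within Gαq it was at 1641 to 11672 CPM on CD and at 2236 to 5207 on ERTU. These ranges overlapped through Gαq CD 10, and the other Gαq CD libraries began at 6304 CPM. The part of the Gnaq level in the comparisons of diet in Gαq was not tested. Libraries are named by group and by the number their column carries, and values for a gene are listed in that order: WT CD 1, 2, 4 and 5, WT ERTU 11 to 15, Gαq CD 6 to 10, and Gαq ERTU 16, 17, 18 and 20. Transcripts of atrial muscle (Myl7, Sln, Myl4, Bmp10 and Dkk3) were found in all groups of this ventricular tissue. Their summed level was highest in 1 library of each group, at 321 CPM in WT CD 5 (5.56 to 90.9 in the others), 335 in WT ERTU 14 (11.4 to 96.0), 907 in Gαq CD 8 (14.6 to 193) and 575 in Gαq ERTU 20 (80.2 to 233). None of the 4 atrial markers that could be tested was called between genotypes (log2 fold change 0.65 to 1.65), and Bmp10, the fifth, was at 0 in 9 libraries. In Gαq ERTU Dkk3 alone was at 56.0 to 93.1 CPM, while Myl7 began at 5.76, Sln at 3.28 and Myl4 at 15.1. Most of the lowest sum of that group, 80.2 CPM, was thus Dkk3. WT CD 5 was the highest library of its group for 38 of the 40 matrix genes (28.1% of all genes tested), WT ERTU 14 for 24 (24.6%), Gαq CD 8 for 22 (23.5%) and Gαq ERTU 20 for 19 (19%). Each of these libraries also had the highest summed fibroblast markers of its group. All but Gαq CD 8 had the lowest summed cardiomyocyte markers of their group. In WT CD 5 the cardiomyocyte sum was 31001.5 CPM (41946.7 to 45401.5 in the other WT CD libraries) and the fibroblast sum 4279.5 (2065.27 to 3035.29). Neither the source of the atrial transcripts nor the part of atrial RNA or of cell composition in the matrix values was tested. For each gene called in either fit the genotype effect is therefore also given from a fit of the 14 other libraries. That choice was made after the data were seen. Leaving out a high WT library lowers the WT level and so favours a call of higher in Gαq. Calls gained only in such fits, or in the fit of 14 libraries, show dependence on these libraries and are not read as support.

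Of the 40 matrix genes 18 rose and 0 fell in Gαq against WT ventricles, with diet in the model, at an adjusted p below 0.05 (edgeR quasi-likelihood test, adjusted over all genes), where 19.6% of all genes were called in either direction and 9.72% were called higher. By class, glycoproteins rose in 8 of 13, elastic fibre genes in 4 of 8, proteoglycans in 4 of 8, crosslinking enzymes in 2 of 4 and basement membrane genes in 0 of 7. The median log2 fold change was 0.43 over the 40 genes and 0.00 over all genes tested, and by class it was 0.74, 0.38, 0.63, 0.42 and 0.01 in the same order. Without the 4 libraries richest in atrial markers 25 genes were called, 17 of the 18 and a further 8. The gene that lost its call was Sparc. In that fit 2886 of 16240 genes tested were called in either direction, against 3196 of 16270 in the main fit. Of the 18, 14 were called in each of the 18 fits that left out a single library. In bulk tissue a change in the number of cells that make a transcript and a change in RNA per cell cannot be told apart.

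**Figure D1:**
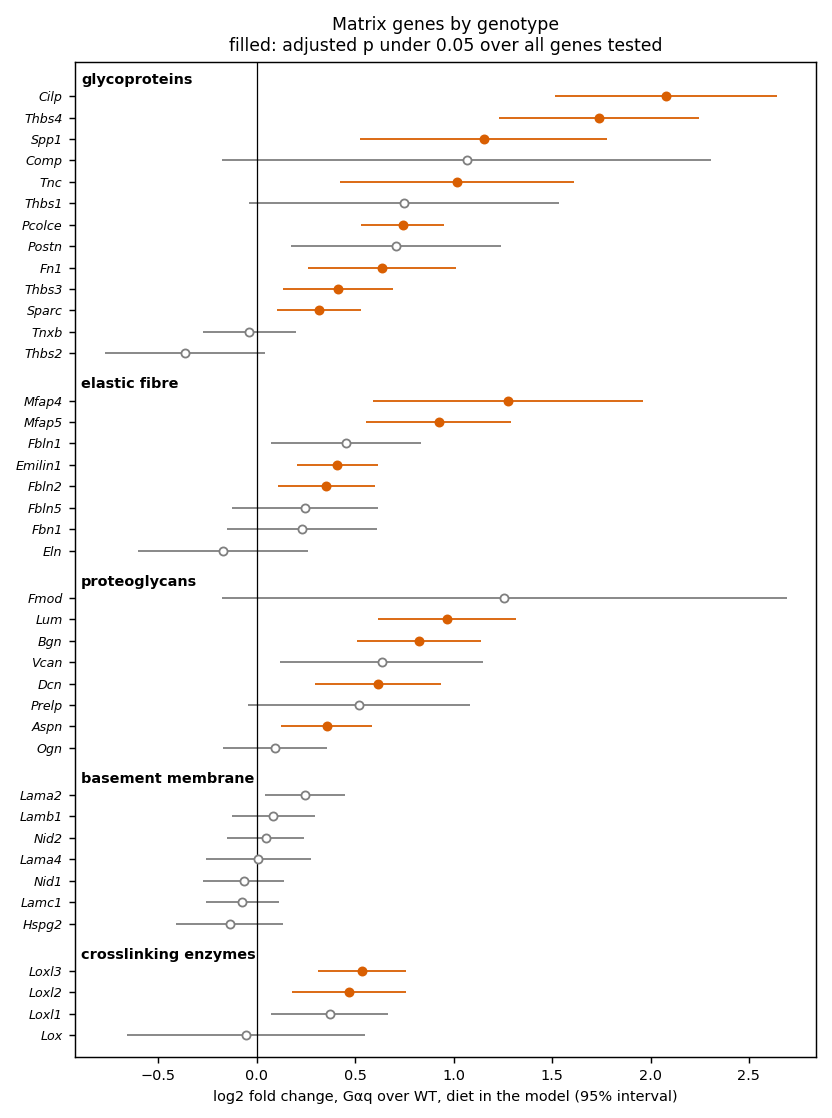
Log2 fold change of Gαq over WT with diet in the model (x axis) for the 40 matrix genes, grouped by class, with 95% intervals; filled points have an adjusted p below 0.05 over all genes tested. Cilp (2.08) and Thbs4 (1.74) lie farthest to the right, and the 7 basement membrane genes lie between -0.14 and 0.25.

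Before the single genes, the sequence just upstream of 3 of them is shown, because these are the genes with the smallest adjusted p by genotype among the 5 called genes that have a single RefSeq promoter (GRCm38.p6) with no annotated exon in the 250 bases before the start site. All are printed 5′ to 3′ on the strand of the gene and end at the base before the start. RefSeq promoters were held for 25 of the 40 genes, as 30 sequences. Capitals mark matches on either strand to GGAATG (TEAD), CAGAC (SMAD), TGANTCA (AP-1) or TATANA (TATA), the last widened from TATAAA after the sequences were seen.
Cilp, chr9:65264930-65265179, + strand: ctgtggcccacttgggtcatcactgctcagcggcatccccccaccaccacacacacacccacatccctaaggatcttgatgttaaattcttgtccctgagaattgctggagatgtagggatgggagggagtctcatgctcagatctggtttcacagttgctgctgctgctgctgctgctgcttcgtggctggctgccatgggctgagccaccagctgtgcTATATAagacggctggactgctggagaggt
Thbs4, chr13:92794819-92795068, - strand: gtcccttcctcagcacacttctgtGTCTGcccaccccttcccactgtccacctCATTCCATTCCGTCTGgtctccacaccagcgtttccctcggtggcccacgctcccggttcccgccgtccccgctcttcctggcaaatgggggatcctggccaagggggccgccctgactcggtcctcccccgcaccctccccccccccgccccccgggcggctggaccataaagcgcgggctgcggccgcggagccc
Bgn, chrX:73483351-73483600, + strand: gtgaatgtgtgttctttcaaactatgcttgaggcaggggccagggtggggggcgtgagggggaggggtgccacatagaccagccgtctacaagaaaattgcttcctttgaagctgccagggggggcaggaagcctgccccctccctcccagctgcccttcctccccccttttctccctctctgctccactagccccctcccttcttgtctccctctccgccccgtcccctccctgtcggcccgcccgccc
The Cilp stretch holds a TATA match from 30 to 25 bases before the start. That of Thbs4 holds 2 TEAD matches, which share 1 base, between 197 and 187 bases before the start, and SMAD matches at 226 to 222 and 186 to 182. No capital stands in the Bgn stretch, which says only that these letters are not in this window. Matches of this length are common. Among 32851 promoters of the same length a TEAD match was in 12.6%, a SMAD match in 42.2%, an AP-1 match in 6.7% and a TATA match in 22.6%, and among the 30 sequences of the matrix genes they were in 3, 16, 1 and 10.

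Among the glycoproteins, cartilage intermediate layer protein (Cilp), a matrix protein first known from cartilage, had the largest difference. Cilp was at 10.1, 5.01, 4.28 and 20.6 CPM in WT CD, 7.38, 6.91, 4.61, 11.4 and 3.93 in WT ERTU, 39.6, 59, 29.5, 40.7 and 31.7 in Gαq CD, and 33.8, 42, 15.4 and 31.3 in Gαq ERTU. Every Gαq library lay above every WT library of its diet, and over both diets the 1 pair out of order was WT CD 5 above Gαq ERTU 18. The log2 fold change by genotype was 2.08 ± 0.27 (SE), a 4.22-fold difference (adjusted p = 1.15e-05), and it was 2.56 (adjusted p = 2.85e-06) without the 4 libraries. Thrombospondin-4 (Thbs4) binds collagen and other matrix proteins and is produced by stressed muscle. Thbs4 was at 25.4, 8.83, 13.2 and 30.2 CPM in WT CD, 8.04, 8.69, 15.7, 23 and 9.6 in WT ERTU, 40.2, 76.8, 65.7, 43.5 and 44.7 in Gαq CD, and 61.7, 63.8, 33.3 and 49.4 in Gαq ERTU. Each of the 9 Gαq libraries was above each of the 9 WT libraries, which held for 2 of the 40 genes (Thbs4 and Lum) and for 1.73% of all genes. Its log2 fold change was 1.74 ± 0.24, 3.34-fold (adjusted p = 2.53e-05), and 2.01 (adjusted p = 3.17e-05) without the 4 libraries.

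Procollagen C-proteinase enhancer (Pcolce), which speeds the removal of the C-propeptide from fibrillar procollagens, was at 63.8, 49.7, 60.5 and 79.9 CPM in WT CD, 45.3, 56.5, 62.6, 49.7 and 64.2 in WT ERTU, 113, 98.7, 135, 128 and 90.3 in Gαq CD, and 100.3, 85.5, 76.7 and 87.6 in Gαq ERTU. Its spread within groups was small, and the only WT library above a Gαq one was WT CD 5, at 79.9, against Gαq ERTU 18 at 76.7. By genotype the log2 fold change was 0.74 ± 0.10 (adjusted p = 1.86e-05), and 0.75 (adjusted p = 0.000124) from the 14 libraries. Exons of Pcolce share 2.93% of their length with Fbxo24 on the same strand. Osteopontin (Spp1), a secreted integrin ligand, was among the lowest of the 40 genes, at 0.807, 0.912, 0.521 and 0.691 CPM in WT CD, 0.54, 0.167, 0.768, 0.891 and 0.193 in WT ERTU, 0.492, 1.4, 2.2, 1.85 and 0.937 in Gαq CD, and 1.22, 1.33, 1.86 and 1.15 in Gαq ERTU. Its lowest library held 3 counts. On ERTU the genotypes did not overlap, and on CD they did through Gαq CD 6, which lay below all WT CD libraries. Between genotypes the log2 fold change was 1.15 ± 0.30 (adjusted p = 0.00912) and 1.19 (adjusted p = 0.0285) from the 14 libraries. Spp1 shares 18.75% of its exon length with Gm42793 on the same strand.

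Tenascin-C (Tnc), an anti-adhesive glycoprotein of remodelling tissue, was at 0.923, 0.57, 0.926 and 2.57 CPM in WT CD, 1.14, 1.34, 1.43, 1.36 and 2.58 in WT ERTU, 2.77, 4.84, 4.76, 2.92 and 1.55 in Gαq CD, and 2.74, 2.99, 1.75 and 2.02 in Gαq ERTU. The groups overlapped through WT CD 5 and WT ERTU 15, at 2.57 and 2.58 CPM, while the other WT libraries stayed at or below 1.43 CPM. Its log2 fold change was 1.02 ± 0.28 (adjusted p = 0.0141), and 1.21 (adjusted p = 0.0111) from the 14 libraries. Fibronectin (Fn1), the adhesive scaffold on which collagen is laid down, was at 108, 80.1, 99.4 and 233 CPM in WT CD, 82.8, 94.1, 94.3, 155 and 119.5 in WT ERTU, 145, 169.6, 223, 166 and 160.4 in Gαq CD, and 136, 212, 224 and 223 in Gαq ERTU. The highest of all 18 libraries was WT CD 5, and without it the remaining WT libraries ended at 155 CPM. The log2 fold change of Fn1 was 0.64 ± 0.18 (adjusted p = 0.0154) and 0.85 (adjusted p = 7.47e-05) without the 4 libraries.

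Periostin (Postn), a product of activated fibroblasts, missed the threshold with a log2 fold change of 0.71 ± 0.26 (adjusted p = 0.05655). Postn was at 75.8, 57.6, 51.4 and 169 CPM in WT CD, 39, 52.9, 49.6, 129 and 69.1 in WT ERTU, 100.4, 154, 231, 152 and 67.1 in Gαq CD, and 96.3, 106, 117 and 136 in Gαq ERTU. WT CD 5 and WT ERTU 14 stood among the Gαq values and Gαq CD 10 among the WT values. The adjusted p was 0.00738 without WT CD 5, 0.0118 without WT ERTU 14, 0.0261 without Gαq CD 10 and 0.0473 without Gαq CD 6. From the 14 libraries the log2 fold change was 0.97 (adjusted p = 0.000641).

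Cartilage oligomeric matrix protein (Comp), a thrombospondin that binds collagen, was highest, within 3 of the 4 groups, in the library richest in atrial markers. Comp was at 21.1, 1.94, 6.6 and 56.6 CPM in WT CD, 2.7, 6.08, 11.8, 31.9 and 6.31 in WT ERTU, 7.5, 7.4, 96.1, 9.06 and 13.7 in Gαq CD, and 49.9, 39.1, 38.2 and 39.9 in Gαq ERTU. In Gαq CD 8 it was at 96.1 CPM while the other libraries of that group ended at 13.7, and WT CD 5 and WT ERTU 14 were the highest of their groups. Gαq CD 9, second in its group in atrial markers at 193 CPM, held only 9.06 CPM of Comp. On ERTU all Gαq libraries were above all WT libraries. By genotype the log2 fold change was 1.07 ± 0.60 (adjusted p = 0.232, 0.0447 without WT CD 5), and 1.32 (adjusted p = 0.0857) from the 14 libraries.

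The other 5 glycoproteins divided. Thrombospondin-3 (Thbs3) and Sparc, a collagen-binding matricellular protein, rose by 0.41 ± 0.13 and 0.32 ± 0.10 on the log2 scale (adjusted p = 0.0348 and 0.0332). Each of these calls was lost in 7 of the 18 fits that left out a library, with adjusted p up to 0.0840 for Thbs3 and 0.0869 for Sparc. WT CD 2, WT CD 4, Gαq CD 8 and Gαq ERTU 20 were among those libraries for both genes. WT ERTU 12, 13 and 15 were the others for Thbs3, and WT CD 1, Gαq CD 9 and WT ERTU 11 were the others for Sparc. Without the 4 libraries Sparc was at 0.27 (adjusted p = 0.134) and Thbs3 at 0.42 (adjusted p = 0.00697). Thrombospondin-1 (Thbs1), an activator of latent TGF-β, had a log2 fold change of 0.75 ± 0.38 (adjusted p = 0.18), and 1.21 (adjusted p = 0.00195) from the 14 libraries. Leaving out WT CD 5 or WT ERTU 14 alone gave an adjusted p of 0.0285 or 0.0414. Thrombospondin-2 (Thbs2), an inhibitor of angiogenesis, was the lowest of the 40 at -0.37 ± 0.20 (adjusted p = 0.207). Tenascin-X (Tnxb), which tethers collagen fibrils, was at -0.04 ± 0.11 (adjusted p = 0.854), a sign that turned in the fit of 14 libraries.

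**Figure D2:**
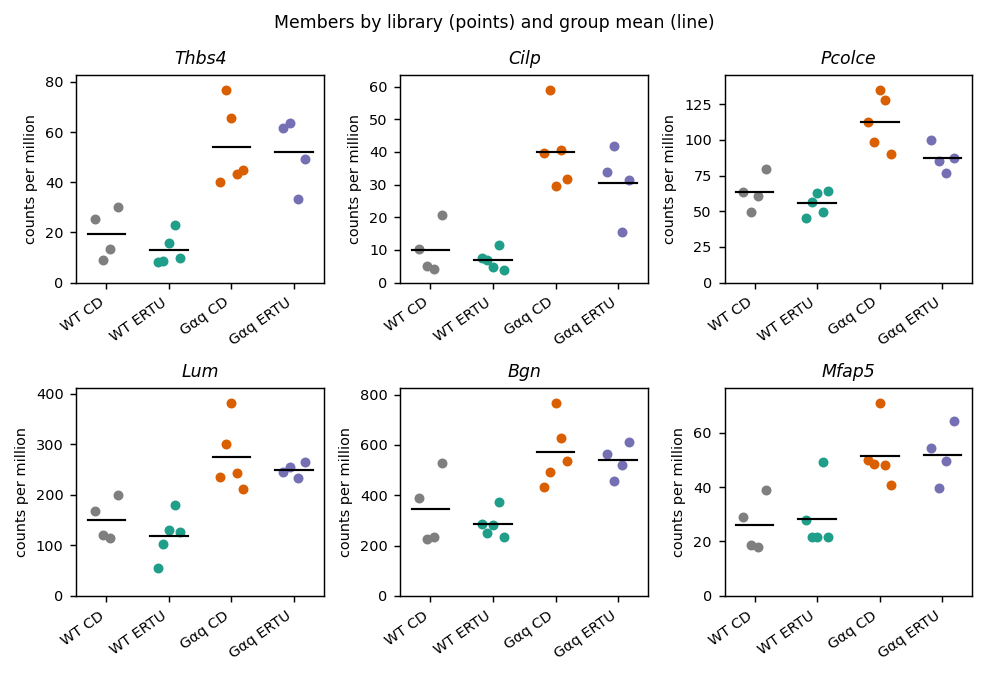
Level in CPM (y axis, from 0) of 6 called genes in each library (points) and the group mean (line), by genotype and diet (x axis). Thbs4 and Lum separate all Gαq from all WT libraries, while in the other 4 genes 1 or more WT libraries reach into the Gαq range.

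Elastic fibres consist of an elastin core on a scaffold of fibrillin microfibrils. The microfibril-associated genes rose most in this class. Mfap5, which encodes a small glycoprotein bound to fibrillin, was at 29.1, 18.7, 18.1 and 38.8 CPM in WT CD, 27.8, 21.7, 21.8, 49.2 and 21.5 in WT ERTU, 49.9, 48.4, 70.8, 48.1 and 40.6 in Gαq CD, and 54.5, 39.6, 49.4 and 64.2 in Gαq ERTU. The genotypes did not overlap on CD and overlapped on ERTU through WT ERTU 14. Its log2 fold change was 0.92 ± 0.18 (adjusted p = 0.000702) and 1.06 (adjusted p = 7.16e-06) without the 4 libraries. Mfap4, whose product binds elastin and fibrillin, was at 14, 6.55, 5.15 and 29.2 CPM in WT CD, 8.58, 8.81, 6.2, 21.2 and 6.57 in WT ERTU, 14.3, 19, 65.8, 34.2 and 21.7 in Gαq CD, and 24.5, 27.1, 22 and 33.3 in Gαq ERTU. Here the genotypes did not overlap on ERTU and overlapped on CD through WT CD 5. Between genotypes the log2 fold change was 1.28 ± 0.33 (adjusted p = 0.00834), and 1.54 (adjusted p = 8.49e-05) from the 14 libraries.

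Emilin1, found at the interface of elastin and microfibrils, was at 41.1, 43, 45.4 and 70.9 CPM in WT CD, 37.9, 53.7, 41.3, 48.2 and 44.5 in WT ERTU, 69.3, 60.1, 77.7, 76.1 and 65.1 in Gαq CD, and 56.2, 65.1, 53.7 and 53.6 in Gαq ERTU. WT CD 5 stood within the Gαq CD range, and the other WT CD libraries ended at 45.4 CPM, below all of Gαq CD. Its log2 fold change was 0.41 ± 0.10 (adjusted p = 0.00534), and 0.52 (adjusted p = 0.000545) without the 4 libraries. Fibulin-2 (Fbln2), which links elastic fibres and basement membranes, was at 229.5, 141, 149.6 and 312 CPM in WT CD, 195, 170.5, 171, 213 and 178 in WT ERTU, 263, 218, 274, 239 and 237 in Gαq CD, and 240.2, 245, 259 and 279 in Gαq ERTU. WT CD 5 was the highest of all 18 libraries, and on ERTU the genotypes did not overlap. By genotype the log2 fold change was 0.35 ± 0.12 (adjusted p = 0.0384), a call that was lost in 12 of the 18 fits leaving out a library (adjusted p up to 0.0797). It was kept without WT CD 1, WT CD 5, Gαq CD 7, Gαq CD 9, Gαq CD 10 or WT ERTU 14, and from the 14 libraries it was 0.47 (adjusted p = 0.00237).

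Elastin itself (Eln) did not pass, at 85.8, 46.5, 43.2 and 134 CPM in WT CD, 118, 79.5, 75.5, 112 and 51.9 in WT ERTU, 67.4, 40.8, 101, 52.2 and 64.5 in Gαq CD, and 72, 78.4, 81.3 and 96.1 in Gαq ERTU. Its 4 groups overlapped throughout, and the log2 fold change was -0.17 ± 0.21 (adjusted p = 0.617, 95% interval -0.60 to 0.26), which was 0.02 without WT CD 5. Fibulin-1 (Fbln1) was at 0.45 ± 0.18 (adjusted p = 0.0895, 0.0137 without WT CD 5) and at 0.49 (adjusted p = 0.00952) from the 14 libraries. Fibulin-5 (Fbln5), needed to assemble elastic fibres, was at 0.24 ± 0.18 (adjusted p = 0.376), and fibrillin-1 (Fbn1), the main microfibril protein, at 0.23 ± 0.18 (adjusted p = 0.422).

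The proteoglycans of this list are small leucine-rich proteoglycans that sit on collagen fibrils and set their spacing, together with the large hyaluronan-binding versican (Vcan). All 8 had a positive log2 fold change. Lumican (Lum), which regulates fibril assembly, was at 168, 121, 115 and 200.2 CPM in WT CD, 56.1, 103, 130.3, 179 and 126 in WT ERTU, 235, 301, 381, 244 and 211 in Gαq CD, and 246, 255, 233 and 265 in Gαq ERTU. The highest WT library, WT CD 5, lay just under the lowest Gαq library, Gαq CD 10. The log2 fold change was 0.97 ± 0.17 (adjusted p = 0.000265), 1.95-fold, and 1.05 (adjusted p = 0.000186) without the 4 libraries. Biglycan (Bgn), whose core protein binds collagen and TGF-β, was at 389, 228, 234 and 527 CPM in WT CD, 285, 249, 282, 371 and 235 in WT ERTU, 432, 491, 766, 626 and 536 in Gαq CD, and 565, 457, 520.2 and 611 in Gαq ERTU. WT CD 5 reached into the Gαq CD range, and on ERTU the genotypes did not overlap. Its log2 fold change was 0.82 ± 0.15 (adjusted p = 0.000456), and 0.92 (adjusted p = 5e-05) from the 14 libraries.

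Decorin (Dcn), the most abundant of the 40 per kilobase, was at 1109.6, 834, 769 and 1286 CPM in WT CD, 813, 825, 948, 1742 and 761 in WT ERTU, 1259, 1349, 2017, 1152 and 1633 in Gαq CD, and 1652, 1425, 1726 and 1664 in Gαq ERTU. WT ERTU 14 lay above every Gαq ERTU library, and the other WT ERTU libraries ended at 948 CPM. Between genotypes the log2 fold change was 0.62 ± 0.15 (adjusted p = 0.00637), and 0.75 (adjusted p = 0.000129) from the 14 libraries. Asporin (Aspn), which competes with decorin for collagen, was at 62.4, 55.4, 52.3 and 79.3 CPM in WT CD, 49.6, 47.2, 64.3, 74.1 and 56.2 in WT ERTU, 72.2, 104, 106, 70.0 and 74 in Gαq CD, and 68, 71.5, 63.4 and 76 in Gαq ERTU. The genotypes overlapped on CD through WT CD 5 and on ERTU through WT ERTU 13 and 14. Over both diets its log2 fold change was 0.35 ± 0.11 (adjusted p = 0.0264), and 0.40 (adjusted p = 0.00901) from the 14 libraries. That call was lost without WT CD 2 (0.06045), WT CD 4 (0.0622) or Gαq ERTU 20 (0.0511).

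Vcan was at 0.64 ± 0.25 on the log2 scale (adjusted p = 0.0774) and at 0.88 (adjusted p = 0.003245) from the 14 libraries. Leaving out WT CD 5, WT ERTU 14 or Gαq CD 10 alone gave it an adjusted p of 0.0119, 0.0366 or 0.0428. Osteoglycin (Ogn), the neighbour of Aspn on chromosome 13, was at 0.09 ± 0.13 (adjusted p = 0.669). Fibromodulin (Fmod) and Prelp, which are neighbours on chromosome 1 and bind collagen, were high in the same libraries as Comp. Fmod, shown by library because of those values, was at 13.1, 0.855, 0.81 and 42.8 CPM in WT CD, 1.98, 4.57, 1.97, 26.6 and 3.74 in WT ERTU, 5.41, 7.02, 83.3, 8.46 and 6 in Gαq CD, and 34.2, 28.5, 24.2 and 30.4 in Gαq ERTU. In 3 groups the library richest in atrial markers was also the highest for Fmod, by far in WT ERTU and Gαq CD, while the 4 Gαq ERTU libraries stood close together. By genotype the log2 fold change was 1.26 ± 0.69 (adjusted p = 0.221) with a 95% interval of -0.18 to 2.69, and 1.88 (adjusted p = 0.0289) without the 4 libraries. Without WT CD 5 alone the adjusted p was 0.041. Prelp was at 0.52 ± 0.27 (adjusted p = 0.196, 0.0162 without WT CD 5) and at 0.78 (adjusted p = 0.000772) from the 14 libraries. Neither the tissue that the atrial marker transcripts came from nor its part in these 2 genes was tested.

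**Figure D3:**
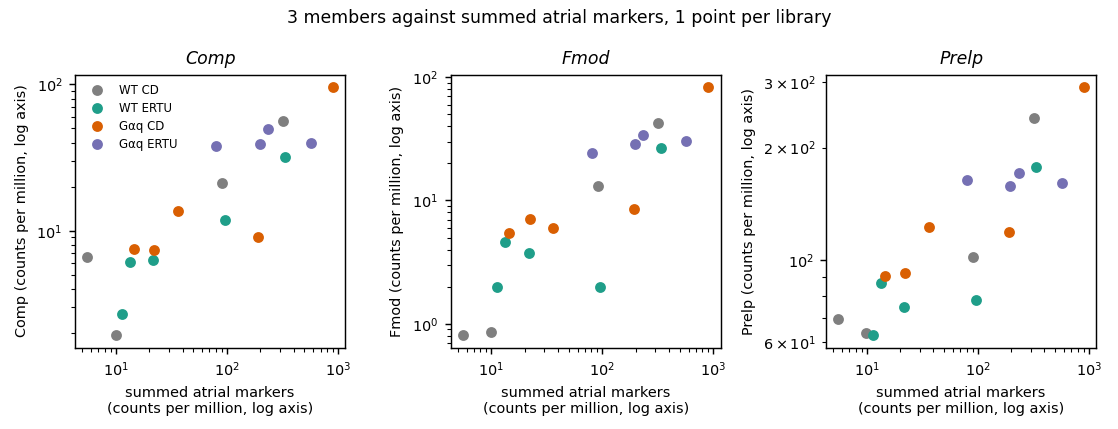
Level of Comp, Fmod and Prelp (y axes, CPM, log scale) against the summed level of 5 atrial muscle markers (x axis, CPM, log scale), 1 point per library and 1 colour per group. The library at 907 CPM of atrial markers, Gαq CD 8, has the highest level of all 3 genes (96.1, 83.3 and 291 CPM).

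None of the 7 basement membrane genes passed the test. Perlecan (Hspg2), the heparan sulphate proteoglycan of this layer, was at 791, 828, 869 and 1156 CPM in WT CD, 819, 888, 718, 612 and 1149 in WT ERTU, 926, 919, 643, 1116 and 709.6 in Gαq CD, and 541, 881, 715 and 791 in Gαq ERTU. Its groups overlapped, and the log2 fold change by genotype was -0.14 ± 0.13 (adjusted p = 0.515, 95% interval -0.41 to 0.14). Laminin α2 (Lama2), the heavy chain of the main cardiomyocyte laminin, came closest to the threshold. Lama2 was at 284, 279, 212 and 331 CPM in WT CD, 262, 285, 232, 218 and 257 in WT ERTU, 373, 295, 248, 346 and 305 in Gαq CD, and 246, 379, 309.6 and 311 in Gαq ERTU. Its groups overlapped on both diets, and the log2 fold change was 0.25 ± 0.10 (adjusted p = 0.0846, 95% interval 0.04 to 0.45). It was called without WT CD 5 (0.0367), Gαq CD 8 (0.0408) or Gαq ERTU 16 (0.0473), and at 0.31 (adjusted p = 0.0439) in the fit of 14 libraries.

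The β1 chain (Lamb1) was at 164, 185, 178 and 245 CPM in WT CD, 175, 207, 195, 159 and 212 in WT ERTU, 222, 218, 163, 272 and 182 in Gαq CD, and 162, 213, 182 and 220.1 in Gαq ERTU. The γ1 chain (Lamc1), shared by most laminins, was at 372, 348, 373 and 487 CPM in WT CD, 369, 351, 310.3, 302 and 409 in WT ERTU, 347, 401, 346, 452 and 331 in Gαq CD, and 262, 351, 346 and 364 in Gαq ERTU. Neither separated the genotypes, with log2 fold changes of 0.08 ± 0.10 (95% interval -0.13 to 0.29) and -0.07 ± 0.09 (95% interval -0.26 to 0.11) and adjusted p of 0.621 and 0.616. Laminin α4 (Lama4), the endothelial heavy chain, was at 0.01 ± 0.13 (95% interval -0.26 to 0.27). The nidogens, which bridge laminin and collagen IV, were at -0.07 ± 0.10 for Nid1 (95% interval -0.27 to 0.14) and 0.05 ± 0.09 for Nid2 (95% interval -0.15 to 0.24). The 7 upper interval bounds ran from 0.11 to 0.45. In WT CD 5 all 7 were the highest of their group, and in WT ERTU 14 and Gαq CD 8 none was. No difference between the classes was tested.

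**Figure D4:**
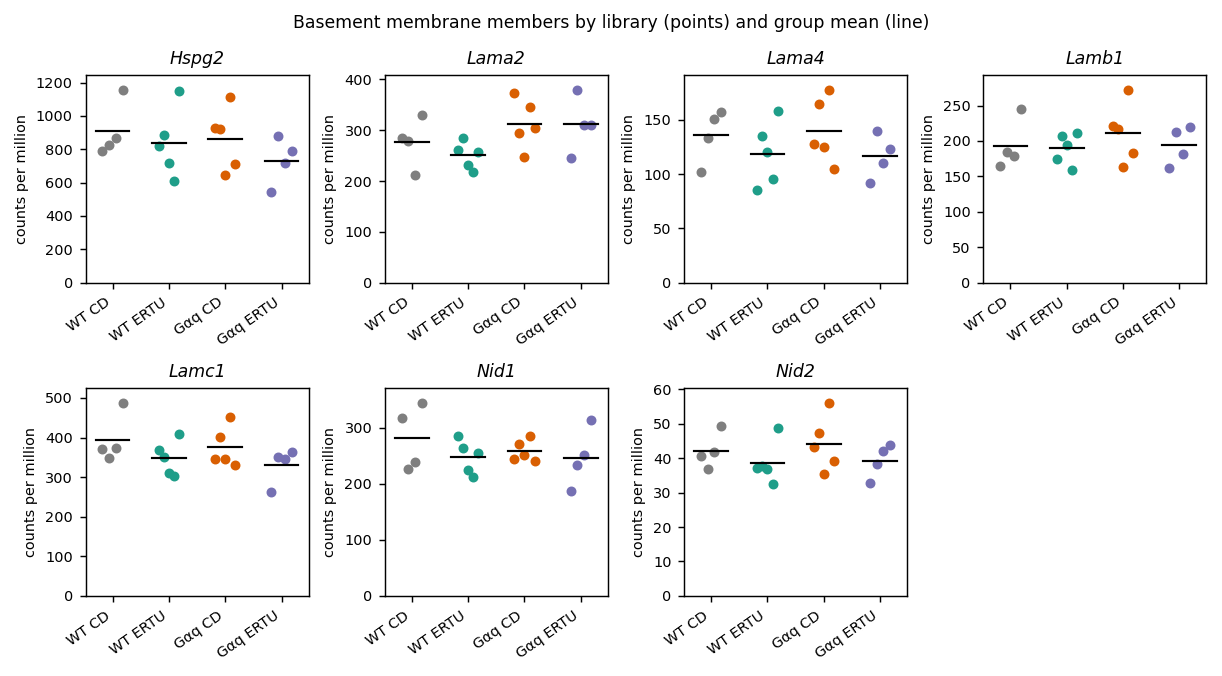
Level in CPM (y axis, from 0) of the 7 basement membrane genes in each library (points) with the group mean (line) for the 4 groups (x axis). All groups overlap for each gene, and the WT CD library that stands highest in each panel is WT CD 5.

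Lysyl oxidases oxidise lysines of collagen and elastin so that chains can be crosslinked. Loxl3 was at 7.73, 5.92, 8.51 and 9.6 CPM in WT CD, 6.18, 6.69, 6.09, 6.71 and 5.73 in WT ERTU, 8.55, 9.97, 14, 13.3 and 11 in Gαq CD, and 7.56, 9.09, 9.66 and 10.4 in Gαq ERTU. On ERTU the genotypes did not overlap, and on CD WT CD 5 lay above the lowest Gαq library. Over both diets its log2 fold change was 0.53 ± 0.11 (adjusted p = 0.001115) and 0.52 (adjusted p = 0.00418) from the 14 libraries. Loxl2, an oxidase of fibrotic tissue, was at 14.9, 21.1, 14 and 30.3 CPM in WT CD, 15.4, 20.5, 15.4, 22.3 and 16.3 in WT ERTU, 25.5, 28.6, 29.1, 40.3 and 22.7 in Gαq CD, and 23.5, 25.8, 20.1 and 25.2 in Gαq ERTU. Apart from WT CD 5, the WT CD libraries ended at 21.1 CPM, below the lowest Gαq CD library. Between genotypes the log2 fold change was 0.47 ± 0.14 (adjusted p = 0.0199), and 0.63 (adjusted p = 0.00394) without the 4 libraries.

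Loxl1, needed for elastic fibre renewal, was at 31.1, 29.5, 30.7 and 58.4 CPM in WT CD, 32.2, 41.6, 33.3, 43.5 and 28.9 in WT ERTU, 52.8, 51.1, 60.1, 68.3 and 47.8 in Gαq CD, and 35.6, 45.1, 30.3 and 49.4 in Gαq ERTU. WT CD 5 stood far above the other libraries of its group, and the ranges of WT ERTU and Gαq ERTU overlapped. The log2 fold change of 0.37 ± 0.14 missed the threshold (adjusted p = 0.0728). It was called without WT CD 5 (0.0154), WT ERTU 14 (0.0401) or Gαq ERTU 18 (0.0332), and at 0.48 (adjusted p = 0.023) in the fit of 14 libraries. The founding member Lox was at 10.7, 4.44, 4.46 and 10.1 CPM in WT CD, 23, 7.58, 5.16, 16.2 and 3.09 in WT ERTU, 8.79, 6.53, 8.65, 6.14 and 7.59 in Gαq CD, and 10.1, 6.38, 10.7 and 12.9 in Gαq ERTU. The WT ERTU libraries alone spanned the range of all other groups, and the log2 fold change was -0.06 ± 0.29 (adjusted p = 0.922, 95% interval -0.66 to 0.55).

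On the scale of CPM per kilobase of exon, levels in WT CD spanned from decorin at 171 and Sparc at 153 down to Spp1 at 0.445 and Tnc at 0.161. Perlecan (63.7), lumican (61.7) and biglycan (56.4) followed Sparc. Cilp was near the low end in WT CD, at 2.35 CPM per kilobase, and reached 9.43 in Gαq CD. The genes with the largest log2 fold changes (Cilp, Thbs4, Mfap4 and Spp1 among those called) were thus at no more than 7.14 CPM per kilobase in WT CD, and no test of level against change was made.

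Within each diet fewer genes passed, and the comparisons on CD and on ERTU used different hearts. On CD, 9 genes were higher in Gαq and 0 lower (4% of all genes were called higher). They were Tnc, Thbs4, Cilp, Pcolce, Emilin1, Mfap5, Bgn, Lum and Loxl3. On ERTU, 8 were higher and 0 lower (3.93% of all genes), namely Fn1, Thbs4, Cilp, Pcolce, Mfap5, Bgn, Lum and Loxl3. The log2 fold changes on CD and ERTU were 2.01 ± 0.40 and 2.15 ± 0.39 for Cilp, 1.48 ± 0.35 and 1.99 ± 0.34 for Thbs4, 0.83 ± 0.15 and 0.65 ± 0.14 for Pcolce, and 0.86 ± 0.24 and 1.07 ± 0.24 for Lum. For Tnc they were 1.44 ± 0.39 (adjusted p = 0.0263) and 0.60 ± 0.38 (adjusted p = 0.387), and for Fn1 0.41 ± 0.25 (adjusted p = 0.391) and 0.86 ± 0.25 (adjusted p = 0.037). A call on 1 diet alone does not show that the diets differ, and the test of that difference gave an interaction of -0.84 ± 0.55 for Tnc (adjusted p = 0.9997) and 0.45 ± 0.36 for Fn1 (adjusted p = 0.9997). Many of these calls were lost when a single library was left out. Of the 18 such fits, 13 lost the call of Bgn on CD (adjusted p up to 0.159), 12 that of Emilin1 (0.173), 11 that of Loxl3 (0.164), 5 each those of Lum (0.115) and Tnc (0.1003), and 3 that of Mfap5 (0.0903). WT CD 2, WT CD 4 and Gαq CD 8 were among the libraries for all 6 genes, WT CD 1 for all but Mfap5, and Gαq CD 7 for Bgn, Lum and Tnc. On ERTU the calls of Fn1, Loxl3 and Mfap5 were each lost in 7 (adjusted p up to 0.106, 0.114 and 0.125), among them those without WT ERTU 11, 12, 13 or 15 or Gαq ERTU 18 or 20, with Gαq ERTU 17 as the seventh for Fn1 and Loxl3 and Gαq ERTU 16 for Mfap5. From the 14 libraries Loxl3 lost its call on both diets.

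Every Gαq library was above every WT library for 5 genes on CD (Thbs4, Cilp, Pcolce, Mfap5 and Lum, against 4.7% of all genes) and for 10 on ERTU (Thbs4, Spp1, Comp, Cilp, Pcolce, Fbln2, Mfap4, Bgn, Lum and Loxl3, against 5.4%). The numbers of genes called within each diet depended on single libraries, and the number called over all genes moved too. In the main fit 1318 of 16270 genes were called on CD and 1330 on ERTU, in either direction. On CD, 17 matrix genes were called without WT CD 5 (1390 of all 16510 tested) and 4 without WT CD 1 (788 of 16543). There were 3 without WT CD 2 (851 of 16496), WT CD 4 (1143 of 16530) or Gαq CD 8 (970 of 16209). On ERTU, 14 were called without WT ERTU 14 (1696 of all 16226 tested). There were 5 without WT ERTU 11 (1121 of 16268), WT ERTU 12 (1017 of 16245) or WT ERTU 15 (1078 of 16279). Leaving out Gαq ERTU 18 (946 of 16530) or Gαq ERTU 20 (983 of 16470) also gave 5. Without the 4 libraries richest in atrial markers the counts were 15 on CD and 18 on ERTU (1090 and 1421 of all 16240 tested). Cilp, Pcolce and Thbs4 were called on both diets in all 18 fits that left out a library.

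None of the 40 genes passed the test for ERTU. With genotype in the model 0 were called (0% of all genes), and 0 were called in WT (0%), in Gαq (0.00615%) and for the interaction of genotype and diet (0%). The DESeq2 Wald test and limma voom also called 0 of the 40 in each of these comparisons. At an unadjusted p below 0.05 there were 4 with genotype in the model (7.7% of all genes), 1 in WT (2.24%), 4 in Gαq (7.62%) and 0 for the interaction (1.92%). The log2 fold change of ERTU over CD was negative for 32 of 40 genes with genotype in the model, 33 in WT and 26 in Gαq, where it was negative for 50.5%, 48.5% and 51.1% of all genes. The medians were -0.18, -0.16 and -0.10, and they were 0.00, 0.01 and 0.00 over all genes. These signs rested in part on single libraries. Without WT CD 5, the highest of its group for most of the genes, the median in WT turned to 0.10 with 13 of 40 genes negative, and with genotype in the model it was -0.06 with 26 negative. Without Gαq CD 8 the median in Gαq was -0.04 with 21 negative. From the 14 libraries the medians were -0.07, -0.02 and -0.05, with 26, 21 and 24 negative. The first of these comparisons is made of the same libraries as the other 2. Gnaq was at 2236 to 5207 CPM in Gαq ERTU and, apart from Gαq CD 10 at 1641, at 6304 to 11672 in Gαq CD. Its part in the effects of ERTU in Gαq was not tested.

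The genes with an unadjusted p below 0.05 in Gαq were Pcolce, Sparc and Loxl1 with negative values and Thbs2 with a positive value. For Pcolce the log2 fold change of ERTU over CD was -0.37 ± 0.14 in Gαq (adjusted p = 0.653, 95% interval -0.67 to -0.07) and -0.19 ± 0.14 in WT. Loxl1 was at -0.48 ± 0.19 in Gαq (adjusted p = 0.653) and -0.06 ± 0.19 in WT (0.24 without WT CD 5), and Sparc at -0.31 ± 0.15 (adjusted p = 0.654) and -0.14 ± 0.15. Thbs2 was at 0.69 ± 0.27 in Gαq (adjusted p = 0.653) and 0.10 ± 0.27 in WT. Loxl3 was the gene below 0.05 in WT, at -0.34 ± 0.16 (adjusted p = 0.9999), beside -0.31 ± 0.15 in Gαq. With genotype in the model Sparc, Pcolce, Emilin1 and Loxl3 were below 0.05, at -0.22 ± 0.10, -0.28 ± 0.10, -0.22 ± 0.10 and -0.32 ± 0.11 (adjusted p = 0.64, 0.639, 0.64 and 0.639). For Cilp and Thbs4 the effects of ERTU in Gαq were -0.39 ± 0.37 (95% interval -1.16 to 0.38) and -0.06 ± 0.33 (95% interval -0.75 to 0.63, and 0.02 without Gαq CD 8). The 7 basement membrane genes were all negative in both genotypes, between -0.19 and -0.03 in WT and between -0.27 and -0.01 in Gαq, with none below 0.05. These signs too rested in part on single libraries. In WT 5 of the 7 were negative without WT CD 5 (-0.11 to 0.11) and 3 from the 14 libraries (-0.04 to 0.17). In Gαq 5 were negative without Gαq ERTU 16 (-0.17 to 0.09). There were 6 without Gαq CD 6 (up to 0.06) or Gαq CD 9 (up to 0.03), and all 7 without Gαq CD 8 and from the 14 libraries.

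**Figure D5:**
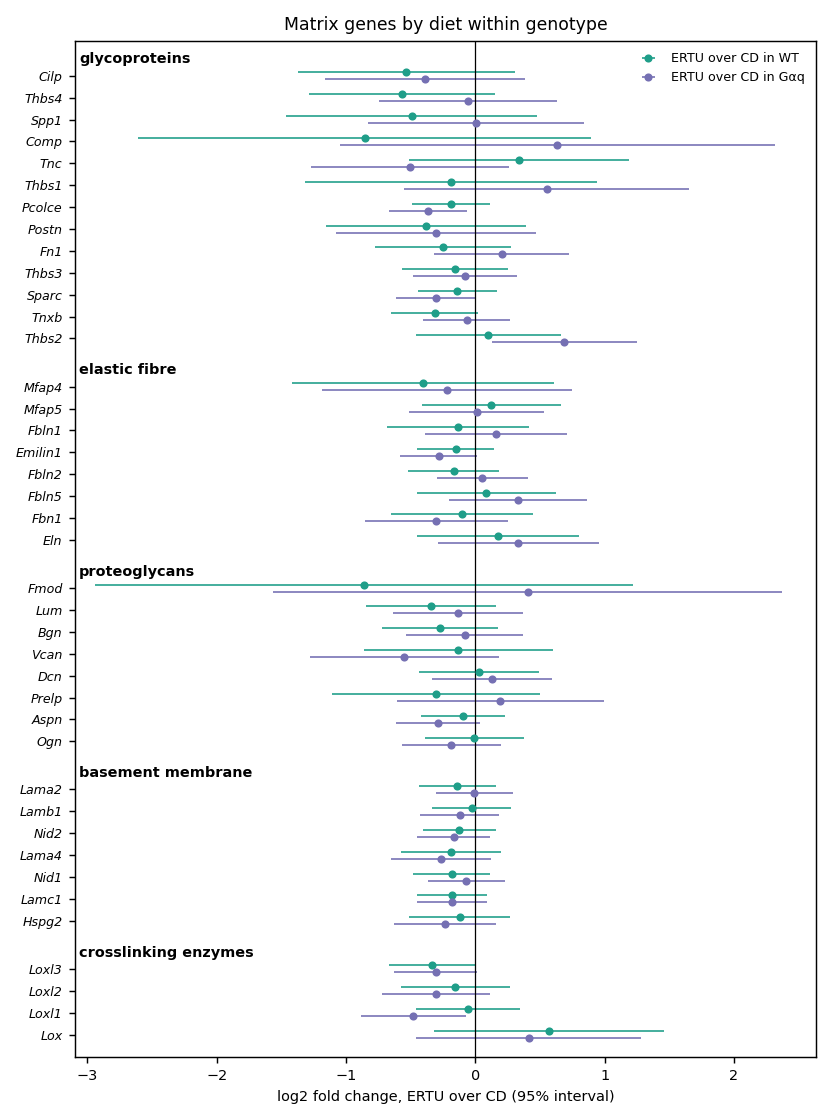
Log2 fold change of ERTU over CD (x axis) in WT and in Gαq for the 40 matrix genes with 95% intervals, grouped by class in the order of the plot by genotype. The intervals leave out 0 for Pcolce, Sparc, Loxl1 and Thbs2 in Gαq and for Loxl3 in WT, those of Comp and Fmod are the widest, and no gene was called in either genotype.

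The collagens and other partners of these genes, taken from fixed lists, are given by genotype, where 9.72% of all genes were called higher and 9.92% lower. Of 14 collagens 10 rose and 0 fell (median log2 fold change 0.56), among them Col1a1, of the main fibrillar collagen, by 0.87 ± 0.19 (adjusted p = 0.00236), Col14a1, of a fibril-associated collagen, by 0.73 ± 0.20 (adjusted p = 0.0141) and Col1a2 by 0.72 ± 0.14 (adjusted p = 0.000863). Of 19 matrix receptors 5 rose and 0 fell (median 0.20), led by the integrins Itgb5 at 0.92 ± 0.14 and Itga9 at 0.87 ± 0.18 and the hyaluronan receptor Cd44 at 0.72 ± 0.14. Other glycoproteins rose in 2 of 15 tested, Mgp, an inhibitor of calcification, by 1.25 ± 0.19 (adjusted p = 5.39e-05) and Smoc1 by 0.95 ± 0.28. Of 12 other elastic fibre genes and members of their families, not all of them parts of elastic fibres, 3 rose. They were fibrillin-2 (Fbn2) by 1.98 ± 0.25 (adjusted p = 6.75e-06), fibulin-7 (Fbln7) by 1.85 ± 0.32 and Mmrn1 by 0.71 ± 0.21. Other proteoglycans rose in 2 of 11, Podn by 0.76 ± 0.14 and Ecm2 by 0.48 ± 0.10. Among 8 other basement membrane genes 2 rose, the laminin chains Lamc3 by 2.18 ± 0.28 (adjusted p = 7.73e-06) and Lamb2 by 0.44 ± 0.09, and the median of the 8 was -0.11. Other crosslinking and collagen-modifying genes rose in 5 of 12, among them the prolyl hydroxylase subunits P4ha3 by 1.84 ± 0.38 and P4ha1 by 0.51 ± 0.14 and the propeptidase Adamts2 by 0.49 ± 0.13. None of these lists had a gene that fell. The counts of 2 among the other glycoproteins and among the other proteoglycans are not far above the share of all genes.

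Markers of cells that make or border the matrix were measured in the same libraries, and those named here were picked after their values were seen. The same shares of all genes (9.72% higher and 9.92% lower) stand beside these lists, and in lists this short a count of 1 is not read as a result. Of 8 fibroblast markers 2 rose (Pdgfra by 0.38 ± 0.09 and Pi16 by 0.55 ± 0.13) and 0 fell, with a median of 0.30. Their summed level was 2065 to 4279.5 CPM in WT CD, 2469 to 3953 in WT ERTU, 2697 to 4202 in Gαq CD and 3228 to 3942 in Gαq ERTU. The genotypes overlapped on CD through WT CD 1 and WT CD 5. On ERTU they overlapped through WT ERTU 14 alone, and the other WT ERTU libraries ended at 2676 CPM. Of 5 markers of activated fibroblasts 2 rose (Meox1 by 0.77 ± 0.19 and Fap by 0.40 ± 0.10) and 0 fell, while Acta2 was at -0.34 (adjusted p = 0.358), Cthrc1 at -0.19 (adjusted p = 0.78), and the summed level of the 5 overlapped between all groups. Of 7 endothelial markers 2 fell, Cdh5 by 0.29 and Tie1 by 0.24 on the log2 scale, and of 7 smooth muscle and pericyte markers 1 fell. Of 7 macrophage markers 1 rose, and of 8 cardiomyocyte markers 1 rose and 2 fell. None of 5 adipocyte and 4 lymphocyte markers was called, and 1 of 4 Schwann cell markers rose. Of 6 epicardial markers 3 rose (Upk3b, Msln and Lrrn4), and their summed level was highest in Gαq CD 8 at 48.1 CPM. The part of these cell types in the matrix values was not tested.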

How the data were processed

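Left ventricular RNA was isolated from powdered frozen tissue, and poly(A) libraries were sequenced as paired ends. Per the labels, the authors aligned reads to mm10 with STAR (2.6.0c) and counted them per Ensembl gene with featureCounts of Subread (1.6.2). They used uniquely aligned proper pairs on the strand of the gene and deposited counts per gene of nuclear-encoded genes. A second deposited table of transformed values was not used. Whole-number counts of 18 libraries were read by group from the column names, which carry numbers that run across the series.

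The 40 genes and all lists were chosen with earlier results of these data known. Of 55450 identifiers, 99.5% matched GENCODE M21. Genes were kept by filterByExpr (16270, the rest holding 0.0906% of counts), scaled by TMM and tested with the quasi-likelihood F test of edgeR (4.0.16, R 4.3.3), with Benjamini-Hochberg adjustment over all genes and a threshold of 0.05. The genotype and diet effects came from an additive model, and the 5 other comparisons from a model with 1 mean per group. CPM are on the TMM scale. The depth of 15383566 to 20908363 counts left the lowest member value at 3 counts (Spp1). On simulated counts of 16270 genes, 200 genes with a mean CPM of at least 1 were changed by a factor of 2. The genotype test recovered 95% of the 200 with 10 false calls. Counts were drawn independently, so this recovery does not describe smaller changes, lower levels or libraries that differ as a whole. Levels in every library are given for 25 of the 40 genes, up to 4 of each class with the smallest adjusted p by genotype and 8 known from cardiac remodelling, and for Fmod, added after its values were seen. Of each other list up to 3 called genes with the largest change are named. Alternatives were DESeq2 size factors, the DESeq2 (1.42.0) Wald test, limma (3.58.1) voom, no filter, a mean CPM of at least 1, the 4-group model, fits of the compared groups alone, each library left out, and 14 libraries.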

Additional observations from a re-analysis of the deposited data

Results flagged for a closer look

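The 95% limit of Dixon's test is on the gap of a library to its neighbour, as a share of the group's range. Of 100 sets of libraries checked (25 genes in 4 groups), 9 held a library past this limit. Chance gives about 5 if values are normal, and the genes share the same libraries, so the 9 are not independent. Of these, 5 lay in WT CD 5 or WT ERTU 14, the WT libraries richest in atrial markers. In WT CD 5 they were Loxl1 (58.4 CPM, the others 29.5 to 31.1, share 0.946) and Emilin1 (70.9, the others 41.1 to 45.4, share 0.855). In WT ERTU 14 they were Mfap4 (21.2, the others 6.2 to 8.81, share 0.827), Dcn (1740, the others 761 to 948, share 0.809) and Mfap5 (49.2, the others 21.5 to 27.8, share 0.775). Comp stood apart in Gαq CD 8, also the richest of its group in these markers (96.1 CPM, the others 7.4 to 13.7, share 0.929). The part of atrial RNA in these values was not tested. In Gαq ERTU 16, Comp was high (49.9, the others 38.2 to 39.9, share 0.859) and Fn1 was low (136, the others 212 to 224, share 0.864). Tnc was high in WT ERTU 15 (2.58, the others 1.14 to 1.43, share 0.8).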

How the results depend on the processing

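With diet in the model, 18 genes were called by genotype with DESeq2 size factors (3194 of all 16270 tested). The mean CPM filter (3033 of 14419), the DESeq2 Wald test (3553 of 18760) and the 4-group model (3094 of 16270) also called 18. The number was 20 with no filter (2947 of 30773), 21 with limma voom (3238 of 16270) and 25 from the 14 libraries (2886 of 16240). Those 14 libraries were chosen after seeing the data. With a library left out the number was 14 to 27 (2812 to 3458 of 16203 to 16543 tested). On CD the 9 became 5 in the fit of the 2 groups compared alone (1007 of all 15682 tested). From the 14 libraries they became 15 (1090 of 16240), and with a library left out 3 to 17 (788 to 1414). On ERTU the 8 became 12 in the fit of the 2 groups compared alone (1251 of all 15686 tested). They became 11 with no filter (1225 of 30773) or with voom (1372 of 16270), and 18 from the 14 libraries (1421 of 16240). With a library left out they became 5 to 14 (946 to 1696). ERTU called 0 in every setting, as did the interaction, but the median log2 fold change of ERTU in WT (-0.1562) turned to 0.1017 without WT CD 5. Signs by genotype turned for 5 genes that were not called. Lox (-0.06) was 0.1628 with voom and 0.0233 from the 14 libraries, and with a library left out it ran from -0.1672 to 0.1668. Tnxb (-0.04) was 0.0235 from the 14 libraries and ran from -0.0869 to 0.0803, Eln from -0.2657 to 0.0189, Nid2 from -0.0019 to 0.0933 and Lama4 from -0.0495 to 0.0678. The causes were not tested. No paired analysis was possible because no 2 groups have a column number in common. Depth limits Spp1 most, with 3 counts in its lowest library, and 4 to 5 hearts per group limit all comparisons.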
